A study of Mus musculus with 12 samples.

Results

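The genes described here encode 10 enzymes and helpers that write, copy and remove DNA methylation or write the Polycomb mark, taken by name: Dnmt1, Uhrf1, Hells, Dnmt3a, Dnmt3b, Tet1, Tet2, Tet3, Ezh2 and Ezh1. They are 10 of the 53715 genes listed for the series, and all 10 passed the filter on low counts (more than 10 counts in at least 1 library). The study asked how hepatocytes form the lumina of bile canaliculi, and its RNA-seq set cultured hepatocytes beside their precursors and beside adult cells. There were 3 groups of 4 biological replicates, all from C57BL/6JOlaHsd mice, with no allele or knock-down in any group. Hepatoblasts were Dlk1+ cells of E14.5 livers, pulled out on magnetic beads from pooled embryonic livers and lysed without culture. Diff. hepatocytes were Dlk1+ cells of the same embryonic day kept for 4 days in culture protocol 1, on fibronectin in medium with serum, dexamethasone and Matrigel. Mature hepatocytes came from collagenase-perfused livers of adult male mice of 8 to 12 weeks and were lysed without culture. Age, culture and way of isolation differ between the groups together, so their parts in any difference cannot be told apart. The adult mice were male and the study's methods give no sex for the embryos, so a part of sex cannot be told apart either.

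DNA methylation is copied onto the new strand behind the replication fork by Dnmt1, which Uhrf1 brings to hemimethylated sites, and Hells remodels nucleosomes so that compact DNA can be reached. Dnmt3a and Dnmt3b methylate sites that carried no mark before, and the Tet enzymes oxidize methylated cytosine as the opening step of its removal. Ezh2 and Ezh1 are the alternative catalytic subunits of Polycomb repressive complex 2 (PRC2), which methylates histone H3 at silenced genes, and Ezh2 is known for its expression in dividing cells while Ezh1 is also found in resting ones.

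The deposited values were counts on genes, 19581551 to 25216977 per library. Levels are given as CPM, counts per 1000000 counts of the library, with library sizes scaled by TMM factors, which were 1.23 to 1.44 in hepatoblasts, 1.03 to 1.08 in Diff. hepatocytes and 0.677 to 0.778 in mature hepatocytes. Markers were checked against the labels. Hepatoblast markers (Dlk1, Afp, Gpc3, Igf2, H19) summed to 41800 to 70020 CPM in the hepatoblast libraries and 65.87 to 109.1 CPM in the mature ones, and 10 of 10 hepatocyte markers were higher in mature hepatocytes. In Diff. hepatocytes 4 of the 5 hepatoblast markers were called lower than in hepatoblasts (median log2 fold change -1.72, Dlk1 at -5.23), although the sum, carried by the most abundant genes, was 37820 to 44140 CPM, and 6 of 10 hepatocyte markers were called higher. A pair of libraries, both replicate 1, stood apart from the rest of their groups in several marker lists. In hepatoblasts replicate 1, markers of red blood cells were above all other hepatoblast libraries for 10 of 10 genes (summed 3076 CPM against 379.2 to 625.1), of blood progenitors and megakaryocytes for 7 of 7 genes (333.9 CPM against 30.99 to 54.25), and of macrophages for 9 of 9 genes (271.7 CPM against 62.01 to 72.28). Its endothelial markers were also highest for 8 of 8 genes and its hepatoblast markers lowest for 5 of 5 genes (41800 CPM against 59710 to 70020). In Diff. hepatocytes replicate 1, 10 of 10 mitosis genes (summed 139.3 CPM against 62.62 to 68.27) and 9 of 9 macrophage genes (208.2 CPM against 28.52 to 96.17) were above the other libraries of the group. Other libraries led single lists: hepatoblasts replicate 3 was highest for 8 of 8 mesenchymal genes, mature hepatocytes replicate 3 for 5 of 5 hepatoblast, 7 of 8 mesenchymal and 7 of 9 macrophage genes, and mature hepatocytes replicate 4 for 9 of 10 hepatocyte genes. Red blood cell markers, 10 genes, summed to 379.2 to 3076, 6.974 to 29.27 and 134.9 to 184.6 CPM in hepatoblasts, Diff. and mature hepatocytes. Against hepatoblasts, 10 of them were called lower in Diff. hepatocytes, and 9 lower and 1 higher (Alas2, log2 fold change 2.13) in mature hepatocytes. Between Diff. and mature hepatocytes only Alas2 was called, lower in Diff. hepatocytes (-6.73). The median of the 10 genes was 1.87 there, opposite to the order of the 2 sums. Blood progenitor and megakaryocyte markers, 7 genes, summed to 30.99 to 333.9, 11.28 to 37.19 and 8.754 to 10.56 CPM in the same order. Mesenchymal markers, 8 genes, summed to 659.6 to 1283, 1163 to 2905 and 50.53 to 72.02 CPM in hepatoblasts, Diff. and mature hepatocytes. Bile duct markers, 6 genes, summed to 12.89 to 15.06, 69.99 to 212.9 and 15.4 to 40.66 CPM. The part of these lists in the results was not tested. The RNA came from many cells at a time, so fewer cells of a type and less RNA per cell cannot be told apart.

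Stretches of DNA at the start sites of Dnmt1, Uhrf1, Hells and Ezh2, which fell outside hepatoblasts, are shown because each holds a form of 1 short sequence. Tet1, which also fell, held none, and neither did Dnmt3a and Dnmt3b, which fell in mature hepatocytes. All 10 genes were matched in RefSeq (GRCm38.p6), with 15 windows that run from 250 bases before to 50 bases after a transcript start. The letters TTTCCCGC, TTTCGCGC, TTTGCCGC and TTTGGCGC, forms of the site that E2F factors bind at genes of the cell cycle, were searched on both strands. At least 1 of them was in the windows of 704 of all 27025 genes (2.6%) and of 4 of the 10 members, namely Dnmt1, Uhrf1, Hells and Ezh2. By window it was 744 of all 32851 (2.26%) and 4 of the 15 of the members. Each line below gives up to 30 bases around a match, 5′ to 3′ on the strand of the gene, with the matched letters in capitals. In the window of Dnmt1 at -219 the letters stand on the opposite strand, so that the line shows the reverse complement of TTTCGCGC.
Dnmt1, chr9:20952824-20952853, minus strand: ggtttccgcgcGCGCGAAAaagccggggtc
Dnmt1, chr9:20952574-20952601, minus strand: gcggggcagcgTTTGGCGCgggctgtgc
Uhrf1, chr17:56304117-56304146, plus strand: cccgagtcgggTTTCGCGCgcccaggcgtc
Hells, chr19:38930917-38930946, plus strand: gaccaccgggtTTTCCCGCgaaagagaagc
Ezh2, chr6:47595009-47595038, minus strand: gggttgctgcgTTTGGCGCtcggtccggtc

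Counted from the RefSeq start, the matches began at -219 and 34 in Dnmt1, at -185 in Uhrf1, at -62 in Hells and at 4 in Ezh2. The 250 bases upstream of the start are given whole for Uhrf1, the member with the largest fall in Diff. hepatocytes, and for Ezh1, the member with the smallest range of levels across the 3 groups relative to its mean and with none of these letters. The Uhrf1 stretch lies in an intron of the annotated gene, which has a transcript that starts further upstream, and the Ezh1 stretch lies just outside its gene. Neither overlaps an exon of any annotated gene. The Uhrf1 stretch held 30 CG pairs and the Ezh1 stretch held 14.
Uhrf1, chr17:56304063-56304312, plus strand: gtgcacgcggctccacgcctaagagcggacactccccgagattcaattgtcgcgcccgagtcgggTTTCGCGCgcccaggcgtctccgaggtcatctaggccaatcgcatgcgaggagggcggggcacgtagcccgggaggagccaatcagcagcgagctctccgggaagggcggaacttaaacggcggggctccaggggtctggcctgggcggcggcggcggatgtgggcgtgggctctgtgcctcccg
Ezh1, chr11:101226464-101226713, minus strand: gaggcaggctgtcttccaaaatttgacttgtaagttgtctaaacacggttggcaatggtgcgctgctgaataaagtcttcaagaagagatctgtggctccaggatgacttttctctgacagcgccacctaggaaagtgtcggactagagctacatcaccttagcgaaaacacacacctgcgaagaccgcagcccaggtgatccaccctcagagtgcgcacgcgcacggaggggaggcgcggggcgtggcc

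Other short sequences were more common. CCAAT was in the windows of 41.1% of all genes and of 4 members (Dnmt1, Ezh2, Tet3 and Uhrf1). GGGCGG, whose reverse can share letters with the E2F forms, was in those of 38.2% of all genes and of 8 members, all but Ezh1 and Ezh2. TTTGAA or TTCGAA, which cannot share letters with the E2F forms, was in the windows of 21.7% of all genes and of Dnmt1 and Dnmt3b. A match is a run of letters and not a measured binding site, and no binding was measured here.

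Against hepatoblasts, the levels of 5 members fell in Diff. hepatocytes (Uhrf1, Hells, Tet1, Dnmt1 and Ezh2) and none rose, where 28.9% of the 17779 tested genes were called (14% fell and 14.9% rose). A gene was called when its edgeR quasi-likelihood test had an adjusted p below 0.01 and its log2 fold change was beyond 1 in size. In mature hepatocytes 7 members fell (those 5 with Dnmt3a and Dnmt3b) and none rose, where 44.8% of tested genes were called (24.7% fell and 20.1% rose). Tet1, Uhrf1 and Hells were called as higher in the cultured than in the mature cells, 3 members with none lower, where 35.8% of tested genes were called (20.2% higher and 15.6% lower). Of the 17779 tested genes, 11349, 13205 and 12100 had an unadjusted p below 0.05 in these 3 comparisons, in either direction. At an unadjusted p below 0.05, 1 member was higher than in hepatoblasts in each comparison (Ezh1), and none was lower in Diff. than in mature hepatocytes. DESeq2 likewise called none in those directions, and 5, 7 and 4 in the others. The median log2 fold change of the 10 members was -1.57, -2.33 and 0.73 in these 3 comparisons, beside -0.01, -0.15 and 0.09 over all tested genes. Without hepatoblasts replicate 1 and Diff. hepatocytes replicate 1 the counts were again 5, 7 and 3. The comparisons with hepatoblasts share the same 4 hepatoblast libraries.

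**Figure D1:**
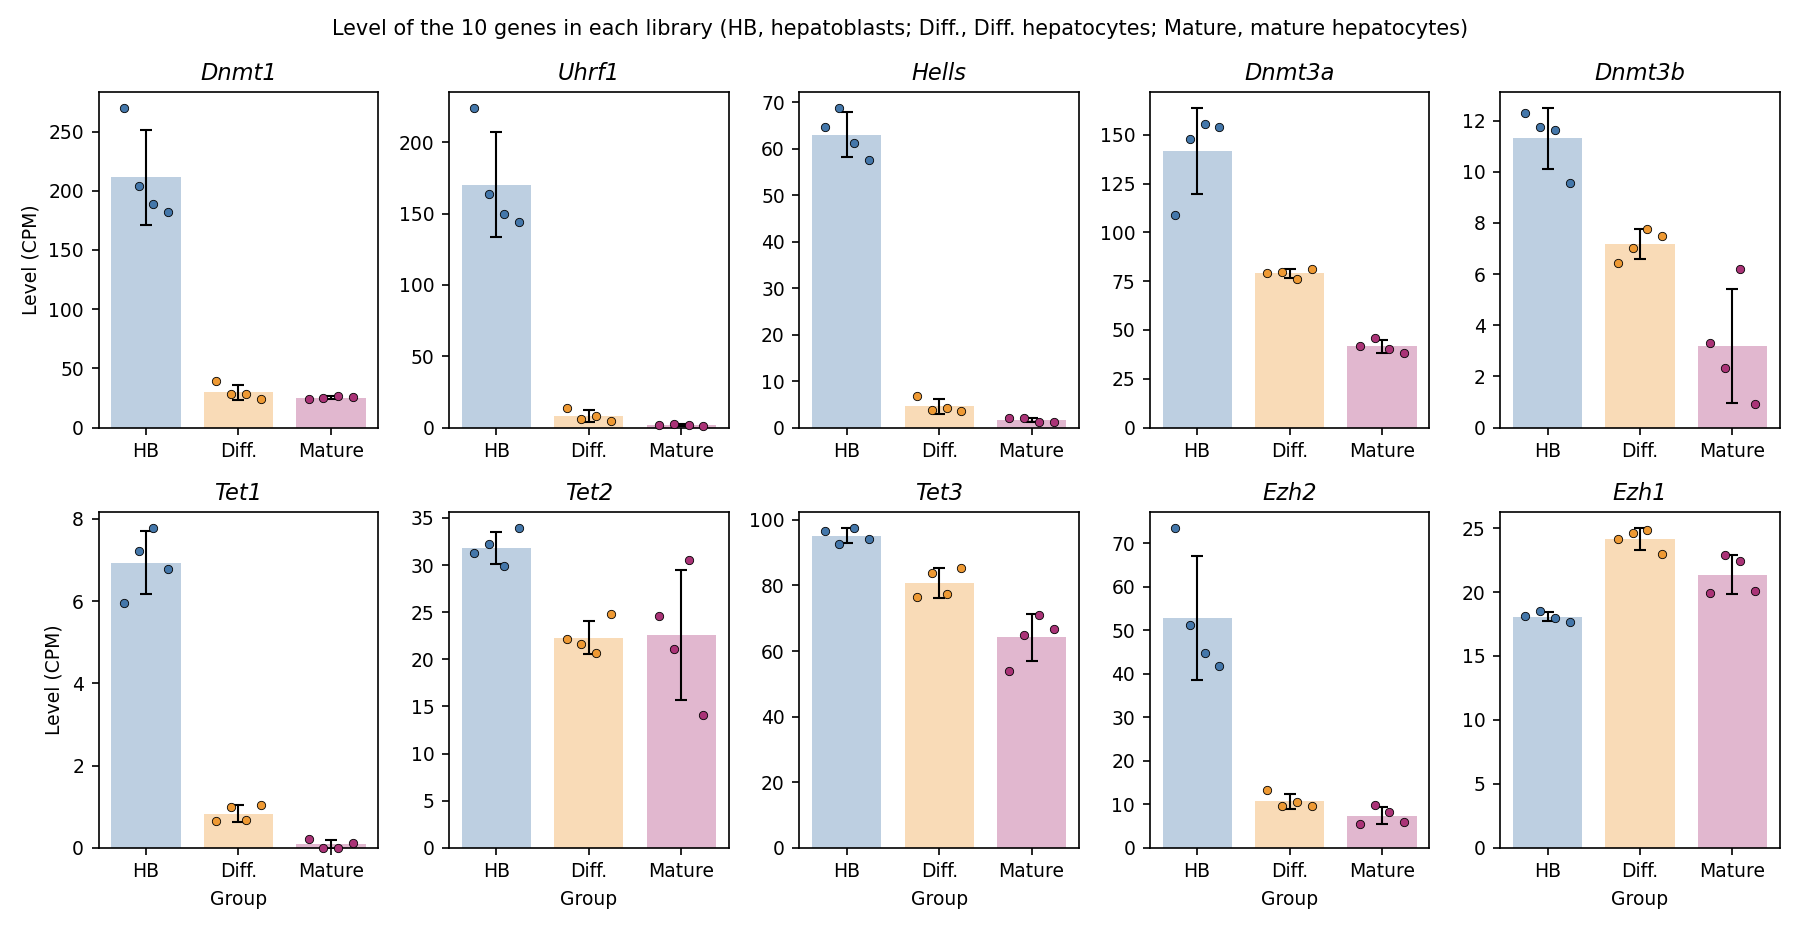
Level in CPM (vertical axis, from 0) of each of the 10 genes in hepatoblasts (HB), Diff. hepatocytes and mature hepatocytes. Points are libraries in replicate order, bars are means of 4 libraries and error bars are SDs. Dnmt1, Uhrf1, Hells, Tet1 and Ezh2 have their 4 hepatoblast libraries far above all others, and Ezh1 has its 4 hepatoblast libraries below all others.

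Dnmt1, Uhrf1 and Hells, which copy methylation, were all lower outside hepatoblasts. Dnmt1 (ENSMUSG00000004099, chr9:20907209-20959888, minus strand), the maintenance methyltransferase, stood at 270, 204, 189 and 182 CPM in hepatoblasts replicates 1 to 4, at 39.1, 27.9, 28.3 and 24.1 CPM in Diff. hepatocytes and at 23.8, 24.5, 26.5 and 26.1 CPM in mature hepatocytes. Every hepatoblast library was above every other library, replicate 1 highest, while the ranges of Diff. and mature hepatocytes overlapped. The means were 211 ± 40.2, 29.9 ± 6.47 and 25.2 ± 1.28 CPM (SD, n = 4 each). The fall was 7.07-fold in Diff. hepatocytes (log2 fold change -2.82, SE 0.16, edgeR adjusted p = 1.11e-08) and 8.38-fold in mature hepatocytes (-3.07, SE 0.16, edgeR adjusted p = 1.7e-09). Diff. and mature hepatocytes differed by 0.24 on the log2 scale, with a 95% interval of -0.09 to 0.58 (edgeR adjusted p = 0.18), and 0.10 without the pair of libraries that stood apart.

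Uhrf1 (ENSMUSG00000001228, chr17:56303321-56323486, plus strand) had a larger fall than the other copying genes, Dnmt1 and Hells. All of these genes hold matched letters shown above. Its levels were 224, 164, 149 and 144 CPM in the hepatoblast libraries, 13.8, 5.68, 8.17 and 4.49 CPM in Diff. hepatocytes and 1.71, 2.37, 1.93 and 1.18 CPM in mature hepatocytes. The 3 groups did not overlap, and the Diff. hepatocytes library highest in Uhrf1 was replicate 1, the library high in mitosis genes, whose part in the result was not tested. Uhrf1 was 21.1-fold lower in Diff. hepatocytes than in hepatoblasts (log2 fold change -4.40, SE 0.31, edgeR adjusted p = 6.95e-08) and 94.5-fold lower in mature hepatocytes (-6.56, SE 0.36, edgeR adjusted p = 2.56e-09). It was 4.47-fold higher in Diff. hepatocytes than in mature ones (2.16, SE 0.35, edgeR adjusted p = 0.000114), and 1.78 on the log2 scale without the pair of libraries. Of the 75-base stretches of its transcripts, 9.05% also occur in Gm5648, which had 2 to 9 counts in hepatoblasts and none elsewhere, against 4354 to 6949 counts of Uhrf1.

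Hells (ENSMUSG00000025001, chr19:38930915-38971051, plus strand), the chromatin remodeler, had 64.5, 68.7, 61.2 and 57.5 CPM in the hepatoblast libraries, 6.87, 3.75, 4.13 and 3.50 CPM in Diff. hepatocytes and 1.99, 2.12, 1.17 and 1.18 CPM in mature hepatocytes. As for Uhrf1, the groups did not overlap and replicate 1 was the highest of the Diff. hepatocytes. Hells was 13.8-fold lower in Diff. hepatocytes (log2 fold change -3.78, SE 0.21, edgeR adjusted p = 1.13e-08) and 39.2-fold lower in mature hepatocytes than in hepatoblasts (-5.29, SE 0.24, edgeR adjusted p = 5.11e-10). The difference between Diff. and mature hepatocytes was 1.51 on the log2 scale (SE 0.25, edgeR adjusted p = 0.000126). It lost its call when the test itself included the fold threshold (edgeR glmTreat, adjusted p = 0.0295).

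Of the de novo methyltransferases, Dnmt3a (ENSMUSG00000020661, chr12:3806007-3914443, plus strand) was the more abundant per length of exon in all 12 libraries. It stood at 109, 148, 156 and 154 CPM in the hepatoblast libraries, 79.0, 79.8, 75.9 and 81.4 CPM in Diff. hepatocytes and 41.8, 45.7, 40.3 and 38.3 CPM in mature hepatocytes. The 3 groups did not overlap, and the lowest hepatoblast library was replicate 1, the one with the highest Dnmt1, Uhrf1 and Ezh2. The log2 fold change was -1.77 in mature hepatocytes (SE 0.11, edgeR adjusted p = 8.62e-09). In Diff. hepatocytes it was -0.84 (SE 0.11, edgeR adjusted p = 1.82e-05), which did not reach the fold threshold, -0.94 without the pair of libraries, and -1.15 with library totals, which passed (edgeR adjusted p = 5.78e-07). Diff. hepatocytes exceeded mature hepatocytes by 0.93 (SE 0.11, edgeR adjusted p = 6.49e-06), also short of the threshold, and 1.45 with library totals, which passed (edgeR adjusted p = 5.21e-08).

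Dnmt3b (ENSMUSG00000027478, chr2:153649450-153687730, plus strand) had 12.3, 11.7, 11.6 and 9.58 CPM in the hepatoblast libraries, 6.44, 7.02, 7.77 and 7.49 CPM in Diff. hepatocytes and 3.29, 2.31, 6.19 and 0.931 CPM in mature hepatocytes. The groups did not overlap, but the mature libraries spread far, from 15 counts in replicate 4 to 106 counts in replicate 3. The coefficient of variation of Dnmt3b in mature hepatocytes was 70%, beside 10.5% in hepatoblasts and 8.13% in Diff. hepatocytes. Dnmt3b fell in mature hepatocytes (log2 fold change -1.82, SE 0.37, edgeR adjusted p = 0.000525), a call lost when the test included the fold threshold (edgeR glmTreat, adjusted p = 0.015). In Diff. hepatocytes the value was -0.65 with a 95% interval of -1.3956 to 0.0863 (edgeR adjusted p = 0.116). Diff. against mature hepatocytes gave 1.17 (SE 0.37, edgeR adjusted p = 0.0127), and without mature hepatocytes replicate 3 it was 1.72 and passed (edgeR adjusted p = 0.000318). Of its 75-base stretches 6.17% also occur in Dnmt3c, which had 0 to 13 counts in any library.

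The order of the mature libraries in Dnmt3b, replicate 3 highest, then 1, 2 and 4, was also the order of their macrophage markers. These 9 genes summed to 228.5, 212.1, 118.9 and 118.6 CPM in that order, nearly equal in replicates 2 and 4. Endothelial markers, 8 genes, summed to 220.3, 215, 122.3 and 157.8 CPM in replicates 3, 1, 2 and 4. Hepatoblast markers, 5 genes, followed the order of Dnmt3b too, at 109.1, 80.77, 74.83 and 65.87 CPM, and replicate 4 was highest for 9 of 10 hepatocyte markers. In Diff. hepatocytes the order of the macrophage markers was the reverse of that of Dnmt3b. Replicates 1, 2, 4 and 3 there had macrophage sums of 208.2, 96.17, 43.88 and 28.52 CPM and Dnmt3b at 6.44, 7.02, 7.49 and 7.77 CPM. No macrophage or endothelial marker was at 0 in the mature group, and the part of these markers in the result was not tested. The within-library log2 ratio of Dnmt3a to Dnmt3b averaged 3.63, 3.45 and 3.95 in hepatoblasts, Diff. hepatocytes and mature hepatocytes. None of the 3 differences passed (two-sided exact permutation tests, p = 0.343, 0.6 and 0.371, smallest possible p 0.0286), with an SE of 0.57 for mature hepatocytes against hepatoblasts. Without mature hepatocytes replicate 3, Diff. hepatocytes were lower than mature hepatocytes in this ratio by -0.93 (exact permutation p = 0.0286, not adjusted). Without mature hepatocytes replicate 4 the mature value turned to -0.10 against hepatoblasts (exact permutation p = 0.857).

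Among the Tet enzymes, Tet1 (ENSMUSG00000047146, chr10:62804570-62908996, minus strand) differed most. It had 185, 242, 240 and 205 counts in hepatoblasts, 15, 23, 15 and 21 counts in Diff. hepatocytes and 3, 0, 0 and 2 counts in mature hepatocytes. In CPM this was 5.97 to 7.77, 0.649 to 1.04 and 0 to 0.206, with no overlap between groups. A library at 0 allows up to 3 counts at this depth, so the mature level was near the limit of detection. Tet1 was 8.28-fold lower in Diff. hepatocytes than in hepatoblasts (log2 fold change -3.05, SE 0.34, edgeR adjusted p = 5.24e-06). Summed over libraries, hepatoblasts had 872 counts and mature hepatocytes 5, a ratio at equal scaled depth of 88.1 with a 95% exact counting interval of 37.6 to 272. The 74 counts of Diff. hepatocytes gave a ratio of 10.5 to mature hepatocytes (95% exact counting interval 4.31 to 33.4). These intervals cover counting error only, and edgeR called both differences (adjusted p = 5.36e-08 and 0.000126).

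Tet2 (ENSMUSG00000040943, chr3:133463679-133545139, minus strand) had 31.3, 32.2, 29.9 and 33.9 CPM in the hepatoblast libraries, 22.2, 21.6, 20.7 and 24.8 CPM in Diff. hepatocytes and 24.6, 21.05, 30.6 and 14.1 CPM in mature hepatocytes. The mature libraries overlapped both other groups and again stood in the order of replicates 3, 1, 2 and 4 that the macrophage and hepatoblast markers had, whose part was not tested. The log2 fold change against hepatoblasts was -0.51 in Diff. hepatocytes (SE 0.17, edgeR adjusted p = 0.0198) and -0.49 in mature hepatocytes (edgeR adjusted p = 0.0198), and neither was called. For Diff. against mature hepatocytes the value was -0.02 with a 95% interval of -0.39 to 0.36 (edgeR adjusted p = 0.934). With library totals in place of TMM factors this value turned to 0.50, and Tet2 was called lower in mature hepatocytes than in hepatoblasts (-1.34, edgeR adjusted p = 2.65e-05).

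Tet3 (ENSMUSG00000034832, chr6:83362373-83459084, minus strand) was the most abundant Tet enzyme per length of exon in every group. It had 96.5, 92.6, 97.4 and 94.3 CPM in the hepatoblast libraries, 76.6, 83.9, 77.3 and 85.2 CPM in Diff. hepatocytes and 54.0, 64.9, 70.9 and 66.8 CPM in mature hepatocytes. The 3 groups did not overlap, yet no difference reached the fold threshold. The log2 fold changes were -0.24 (edgeR adjusted p = 0.0289) and -0.57 (edgeR adjusted p = 4.78e-05) against hepatoblasts, and 0.33 between Diff. and mature hepatocytes (edgeR adjusted p = 0.00416). With library totals Tet3 was called lower in mature hepatocytes (-1.42, edgeR adjusted p = 3.45e-08). Of the summed level of the 3 Tet genes per length, Tet3 made up 70.9%, 77.9% and 74.3% in hepatoblasts, Diff. hepatocytes and mature hepatocytes, and Tet1 made up 5.59%, 0.863% and 0.112%. B230319C09Rik lies antisense to Tet3 and had 7 to 39 counts per library, against 788 to 3101 counts of Tet3.

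**Figure D2:**
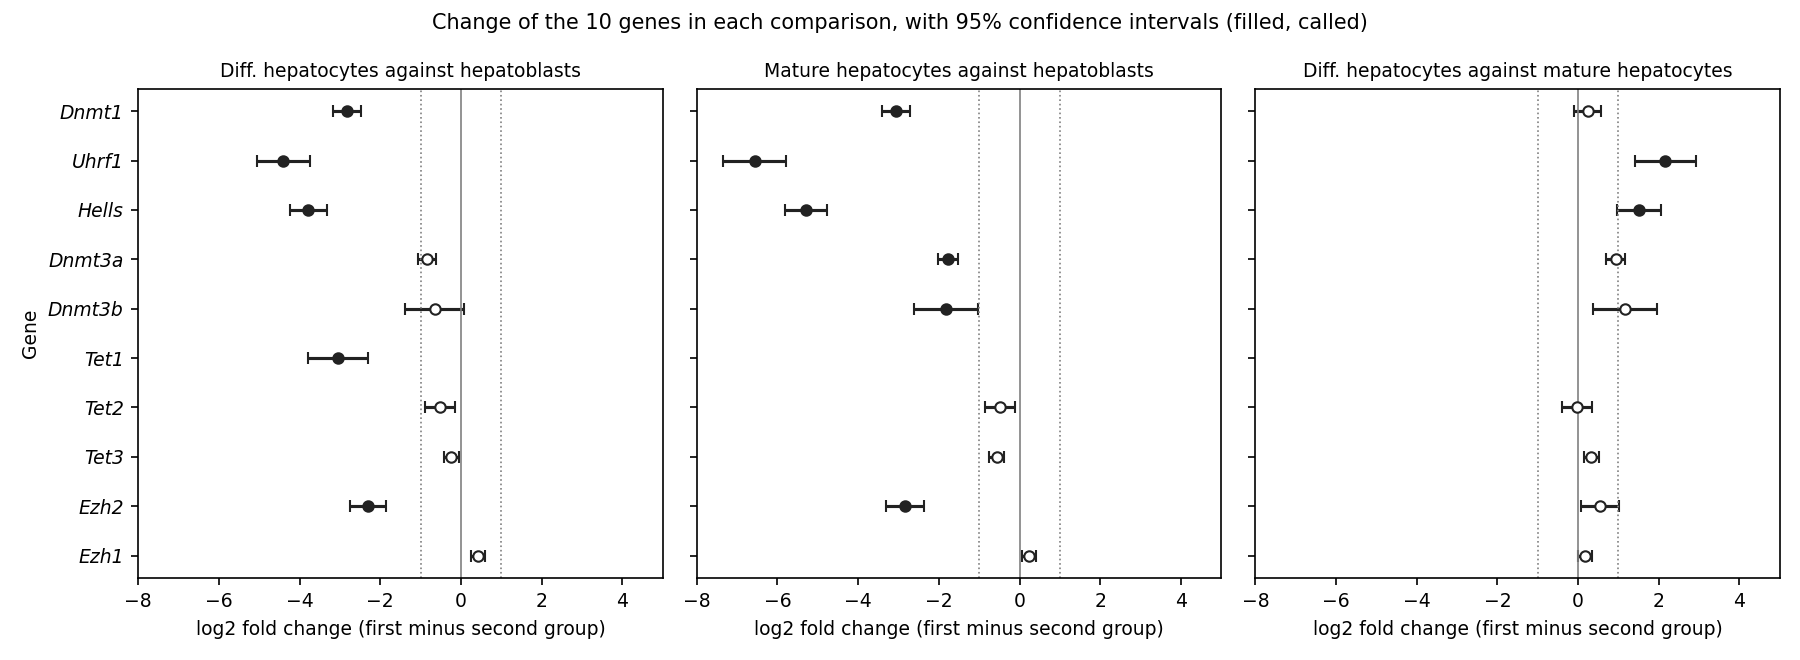
Log2 fold change (horizontal axis) of each gene in the 3 comparisons, with 95% confidence intervals from edgeR. Filled points were called, open points were not, dotted lines mark the fold threshold, and Tet1 is not drawn against mature hepatocytes, where every library had 3 counts or fewer. Uhrf1 lies farthest to the left in both comparisons with hepatoblasts, at -4.40 and -6.56, and Ezh1 is to the right of 0 in both, at 0.42 and 0.24.

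The Polycomb methyltransferases moved apart. Ezh2 (ENSMUSG00000029687, chr6:47530139-47595341, minus strand) had 73.4, 51.3, 44.8 and 41.9 CPM in the hepatoblast libraries, 13.2, 9.51, 10.6 and 9.52 CPM in Diff. hepatocytes and 5.55, 9.75, 8.17 and 5.96 CPM in mature hepatocytes. Every hepatoblast library was above all others, replicate 1 highest, and the other groups overlapped. Ezh2 was 4.93-fold lower in Diff. hepatocytes (log2 fold change -2.30, SE 0.21, edgeR adjusted p = 7.73e-07) and 7.17-fold lower in mature hepatocytes (-2.84, SE 0.22, edgeR adjusted p = 6.18e-08). Without the pair of libraries that stood apart these values were -2.21 and -2.64. Between Diff. and mature hepatocytes the difference was 0.54 with a 95% interval of 0.08 to 1.00 (edgeR adjusted p = 0.0408), and was not called.

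Ezh1 (ENSMUSG00000006920, chr11:101191115-101226463, minus strand) was the member that varied least, with 18.2, 18.5, 18.0 and 17.6 CPM in the hepatoblast libraries, 24.2, 24.6, 24.9 and 23.0 CPM in Diff. hepatocytes and 19.95, 22.9, 22.4 and 20.1 CPM in mature hepatocytes. Every hepatoblast library was below every other library. The log2 fold change against hepatoblasts was 0.42 in Diff. hepatocytes (SE 0.08, edgeR adjusted p = 0.000421) and 0.24 in mature hepatocytes (SE 0.08, edgeR adjusted p = 0.0138), both short of the fold threshold. With library totals in place of TMM factors the mature value turned to -0.61, so the direction for Ezh1 alone depended on the scaling.

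The ratio of Ezh1 to Ezh2 within a library does not depend on the scaling. Per length of exon, Ezh2 stood at 10.995, 7.68, 6.71 and 6.27 CPM per kb and Ezh1 at 2.44, 2.49, 2.42 and 2.37 CPM per kb in hepatoblasts. In Diff. hepatocytes Ezh2 was at 1.97, 1.42, 1.59 and 1.42 CPM per kb and Ezh1 at 3.25, 3.30, 3.34 and 3.09 CPM per kb. In mature hepatocytes Ezh2 was at 0.832, 1.46, 1.22 and 0.892 CPM per kb and Ezh1 at 2.68, 3.08, 3.01 and 2.70 CPM per kb. Ezh2 was thus above Ezh1 in every hepatoblast library and below it in all 8 other libraries. Ezh1 made up 24.2% ± 4.18 of the sum of both in the hepatoblast libraries, 67.1% ± 3.37 in Diff. hepatocytes and 72.6% ± 3.90 in mature hepatocytes (SD, n = 4 each). The log2 ratio rose by 2.69 in Diff. hepatocytes (SE 0.20) and by 3.07 in mature hepatocytes (SE 0.22), each with a two-sided exact permutation p of 0.0286, the smallest that 4 against 4 libraries allow, and 0.0396 after Benjamini-Hochberg adjustment over the 18 within-library tests. Between Diff. and mature hepatocytes the ratio differed by -0.38 (SE 0.18, exact permutation p = 0.0857), and by -0.49 without mature hepatocytes replicate 2 (exact permutation p = 0.0286, not adjusted). At most 0.396% of the 75-base stretches of Ezh2 occur in another gene, and none of those of Ezh1 do.

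**Figure D3:**
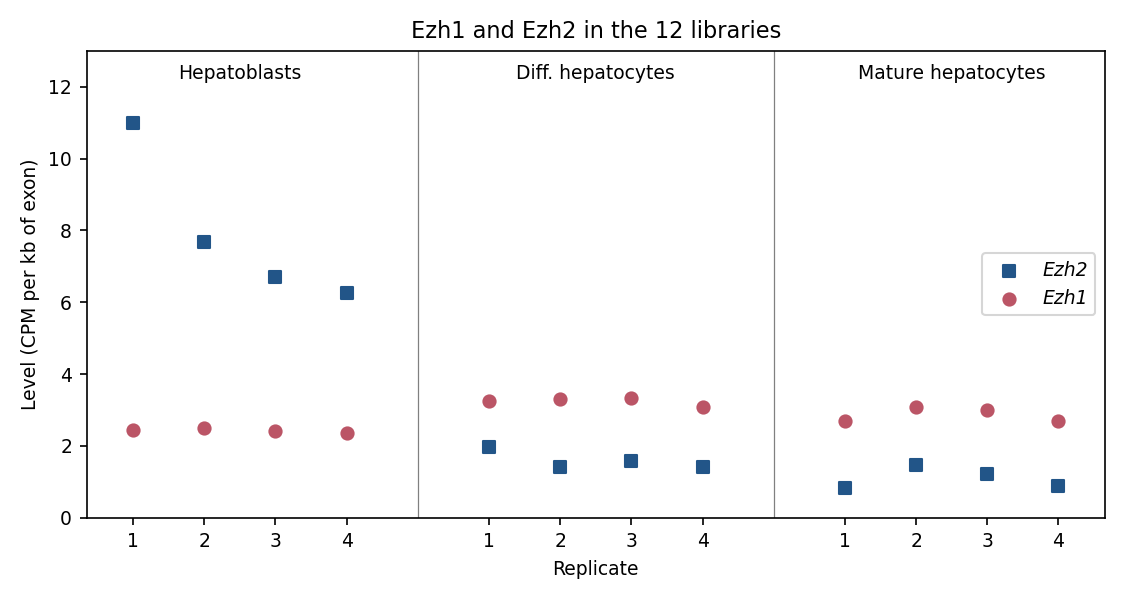
Level of Ezh1 (circles) and Ezh2 (squares) in CPM per kb of exon (vertical axis, from 0) in replicates 1 to 4 of each group (horizontal axis), without error bars since each point is 1 library. Ezh2 lies above Ezh1 in the 4 hepatoblast libraries and below it in the other 8, with Ezh1 between 2.37 and 3.34 throughout.

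All 9 members with a negative change in Diff. hepatocytes were lower in each of its libraries than in any hepatoblast library, and Ezh1 was higher, so that 10 of 10 members did not overlap, where 57.5% of all tested genes did not (28.8% lower and 28.6% higher). In mature hepatocytes 8 members lay below and 1 above all hepatoblast libraries, where 66% of all tested genes did not overlap (35.9% lower and 30.1% higher). Diff. hepatocytes lay above mature hepatocytes for 7 members and below for none, where 61.6% of all tested genes did not overlap (32.4% higher and 29.2% lower). Per length of exon the order of the levels also differed by group. In hepatoblasts it began with Uhrf1 (40.0 CPM per kb) and Dnmt1 (28.7), whose ranges overlapped. Hells (8.74) came next and overlapped Dnmt3a (8.51), which overlapped Ezh2 (7.91). Tet3 (5.70) followed without overlap with Ezh2, then Ezh1 (2.43), Dnmt3b (2.21), Tet2 (1.89) and Tet1 (0.449). In Diff. hepatocytes Tet3 (4.84), Dnmt3a (4.75), Dnmt1 (4.05) and Ezh1 (3.25) came highest, each overlapping the next. In mature hepatocytes Tet3 (3.84) and Dnmt1 (3.42) overlapped at the top, followed by Ezh1 (2.87) and Dnmt3a (2.495), which overlapped, and Uhrf1 (0.422), Hells (0.224) and Tet1 (0.00534) were lowest. Of the summed level of Dnmt1, Dnmt3a and Dnmt3b per length, Dnmt1 made up 72.3% in the hepatoblast libraries, 39.4% in Diff. hepatocytes and 52.5% in mature hepatocytes.

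Genes of the cell cycle moved with these members. All 12 genes of DNA replication (Mcm2, Mcm3, Mcm4, Mcm5, Mcm6, Mcm7, Pcna, Rrm2, Tyms, Cdc45, Gins2, Pola1) fell in Diff. hepatocytes (median log2 fold change -3.12) and in mature hepatocytes (-4.22), and all 10 mitosis genes, with Mki67 and Top2a, fell in both (-4.10 and -6.36). Between Diff. and mature hepatocytes, 4 of the 12 replication genes and 10 of the 10 mitosis genes were called higher in Diff. hepatocytes. Of all tested genes, 14% and 24.7% fell against hepatoblasts in Diff. and mature hepatocytes, and 20.2% were called higher in Diff. than in mature hepatocytes. Summed, the replication genes stood at 1038 to 1835 CPM in the hepatoblast libraries, 141.5 to 201.1 CPM in Diff. hepatocytes and 90.14 to 103.6 CPM in mature hepatocytes, and the top of each of the former 2 ranges was replicate 1. Their part in the falls of the members was not tested, but the level of a member can be set against theirs within each library.

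Measured so, as log2 CPM of the gene minus the mean log2 CPM of the 12 replication genes, the members differed in their distance from this mean. Dnmt1 was at 1.25 in the precursors, 1.54 in Diff. hepatocytes and 2.08 in mature hepatocytes, and Ezh2 at -0.77, 0.08 and 0.28, so both fell less than the mean of the replication genes. Single replication genes spread widely, from -4.17 (Mcm5) to -2.38 (Pcna) in Diff. hepatocytes and from -5.25 (Gins2) to -2.47 (Pcna) in mature hepatocytes, and Dnmt1 in both groups, Hells in Diff. hepatocytes and Ezh2 in mature hepatocytes lay within these ranges. Uhrf1 went the other way, from 0.93 in hepatoblasts to -0.45 in Diff. hepatocytes and -1.70 in mature hepatocytes. Hells likewise stood at -0.48, -1.18 and -1.86. Of these 12 differences, 11 had an exact permutation p of 0.0286 (0.0396 adjusted over the 18 tests). The exception was Ezh2 between Diff. and mature hepatocytes, at -0.20 (SE 0.14, exact permutation p = 0.257), and at -0.32 without mature hepatocytes replicate 1 (exact permutation p = 0.0286, not adjusted).

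The sizes of these relative differences against hepatoblasts were 0.29 (SE 0.07) and 0.84 (SE 0.11) for Dnmt1, and 0.85 (SE 0.05) and 1.05 (SE 0.14) for Ezh2, in Diff. and mature hepatocytes. For Uhrf1 they were -1.38 (SE 0.24) and -2.64 (SE 0.12), and for Hells -0.69 (SE 0.17) and -1.38 (SE 0.23). Within hepatoblasts, Uhrf1 kept between 0.88 and 0.98 in all 4 libraries including replicate 1, and Ezh2 between -0.81 and -0.73. Hells in hepatoblasts replicate 1 stood at -0.92, below the -0.36 to -0.31 of the other 3 libraries. The Dnmt1 difference of Diff. hepatocytes missed the threshold when any hepatoblast library was left out, replicate 1 included (0.26, exact permutation p = 0.0571), with the groups still apart and fewer assignments possible. The difference of Hells between hepatoblasts and Diff. hepatocytes did so when any Diff. hepatocytes library was left out (-0.77 without replicate 1, exact permutation p = 0.0571), again with the groups apart.

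**Figure D4:**
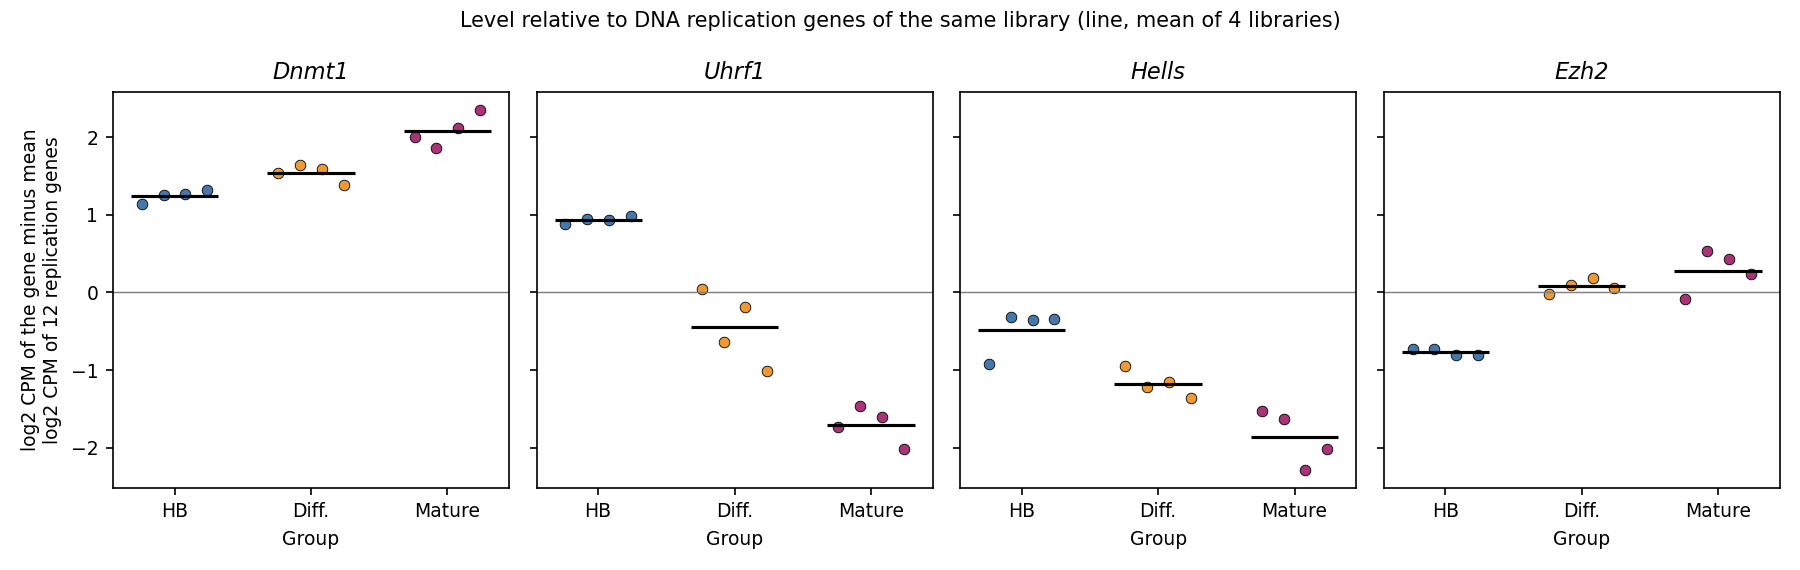
Level of Dnmt1, Uhrf1, Hells and Ezh2 relative to the 12 DNA replication genes of the same library (vertical axis, log2), by group, with points for libraries and lines for the means of 4. Dnmt1 goes up from 1.25 to 2.08 and Ezh2 from -0.77 to 0.28 between hepatoblasts and mature hepatocytes, while Uhrf1 goes down from 0.93 to -1.70 and Hells from -0.48 to -1.86.

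The genes nearest in pattern were ranked by Pearson's r of log2 CPM over the 12 libraries, which fall into 3 groups, among the genes with a mean of at least 10 CPM (8696 others, and 8697 for Dnmt3b). For Dnmt1 they were Rfc4 (r = 0.999), which loads the replication clamp, Hdac2 (0.995), a histone deacetylase, and Ube2s (0.994), which serves the ubiquitin ligase of mitotic exit. Uhrf1 was nearest to Ccnb2 (0.998), a mitotic cyclin, Kntc1 (0.998) and Spag5 (0.998), which act at the kinetochore and spindle. Ezh2 was nearest to Dtl (0.996), Mcm3 (0.994) and Wdhd1 (0.994), all of DNA replication. Ezh1 was nearest to Snx10 (0.964), Dstn (0.958), which severs actin, and Ncoa4 (0.955), a ferritin receptor of autophagy. Dnmt3b had the lowest values, with Erp29 (0.947), Atp2b2 (0.943) and Tra2a (0.942). An r above 0.95 was reached by 411 genes for Dnmt1, 474 for Uhrf1, 373 for Ezh2, 5 for Ezh1 and 0 for Dnmt3b.

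The partners of Ezh1 and Ezh2 in PRC2 did not move as a block. Of 10 such genes, 2 rose and 3 fell in Diff. hepatocytes and 1 rose and 4 fell in mature hepatocytes, with median log2 fold changes of -0.35 and -0.70. The 5 genes called in each comparison stand beside 28.9% and 44.8% of all tested genes, so that the share in mature hepatocytes was near that of all genes. Suz12, a core subunit, had 113 CPM before and 48.4 CPM after culture (log2 fold change -1.22, edgeR adjusted p = 4.27e-07) and 41.4 CPM in mature hepatocytes (-1.44, edgeR adjusted p = 3.71e-08). Eed, the subunit that reads the mark, changed less, by -0.41 and -0.53, and was not called. Rbbp7, a histone-binding subunit shared with other complexes, went opposite ways, from 234 CPM in hepatoblasts up to 813 CPM in Diff. hepatocytes (1.80, SE 0.08, edgeR adjusted p = 2.27e-09) and down to 75.1 CPM in mature hepatocytes (-1.64, SE 0.08, edgeR adjusted p = 1.24e-09).

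Its close relative Rbbp4 fell in Diff. hepatocytes (-1.03, edgeR adjusted p = 1.18e-06), a call lost without the pair of libraries that stood apart (-0.98), and was at -0.00 in mature hepatocytes with a 95% interval of -0.21 to 0.20 (edgeR adjusted p = 0.976). The accessory subunit Mtf2 fell in both (-1.12 and -1.53), Phf19 fell in mature hepatocytes (-1.68), and Phf1 rose there (1.04), a call lost without that pair (0.92). Epop rose in Diff. hepatocytes (1.31). Between Diff. and mature hepatocytes 2 PRC2 partners were higher and 2 lower, where 35.8% of all tested genes were called. With library totals the counts for the 3 comparisons were 1 higher and 4 lower, 0 and 7, and 5 and 0.

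The PRC1 subunits, which bind or add to the mark, were called in both directions. Of 19 genes, 2 rose and 2 fell in Diff. hepatocytes and 3 rose and 6 fell in mature hepatocytes, with medians of 0.04 and -0.08. These 4 and 9 called genes were shares near those of all tested genes (28.9% and 44.8%). Cbx7, a chromodomain subunit that binds the mark, rose from 1.65 CPM in the precursors to 15.0 CPM in culture (log2 fold change 3.18, SE 0.33, edgeR adjusted p = 2.94e-06) and 11.9 CPM in mature hepatocytes (2.85, SE 0.33, edgeR adjusted p = 4.14e-06). Cbx6, of the same family, was 28.7 CPM before and 24.5 CPM after culture and fell to 2.98 CPM in mature hepatocytes (-3.26, SE 0.18, edgeR adjusted p = 2.17e-09). Pcgf5 rose in both (1.00 and 1.23), and Kdm2b (-1.50 and -1.05) and Scmh1 (-1.16 and -1.15) fell in both.

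In mature hepatocytes Cbx8 (1.05) also rose, and Phc1 (-1.60), Pcgf2 (-1.21) and Rnf2 (-1.03), the ubiquitin ligase of the complex, also fell. The changes of Cbx8 and Kdm2b there were not called without the pair of libraries that stood apart (0.99 and -0.96). Bmi1 had values of 0.21 and 0.28, was not called, and turned to -0.12 and -0.58 with library totals. With library totals 1 PRC1 gene rose and 3 fell in Diff. hepatocytes and 1 rose and 9 fell in mature hepatocytes. Between those groups, library totals gave 5 higher and 0 lower in Diff. hepatocytes. With TMM factors it was 3 and 2, where 35.8% of all tested genes were called. Of 6 genes that erase Polycomb marks none was called in any comparison, where 28.9%, 44.8% and 35.8% of all tested genes were called. The medians of these 6 genes were -0.31, -0.37 and 0.16. Among them Kdm6a was at 0.28 and -0.65 and Kdm6b at -0.42 and -0.64 against hepatoblasts, while at an unadjusted p below 0.05 1 of the 6 was higher and 4 lower in Diff. hepatocytes, 1 higher and 3 lower in mature hepatocytes, and 3 higher and 2 lower between these. DESeq2 called 0 of them in each comparison. With library totals 3 of the 6 were called lower in mature hepatocytes than in hepatoblasts and 2 higher in Diff. than in mature hepatocytes.

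Among 12 partners and readers of DNA methylation, 11 passed the filter and Dnmt3l did not. In Diff. hepatocytes 2 of the 11 fell and none rose, where 28.9% of all tested genes were called (14% fell). Their median was -0.44, and at an unadjusted p below 0.05 2 were higher. Cdca7, the partner of Hells in remodeling, fell with it, from 35.6 CPM in the precursors to 5.80 CPM in culture (log2 fold change -2.61, SE 0.17, edgeR adjusted p = 4.79e-08) and 1.78 CPM in mature hepatocytes (-4.31, SE 0.20, edgeR adjusted p = 5.22e-10). Mbd4, a DNA glycosylase at methylated sites, fell from 6.15 CPM to 1.3973 CPM in culture and was at 0.854 CPM in the adult cells (-2.13 and -2.83, edgeR adjusted p = 1.12e-05 and 7.53e-07). Zbtb24, a zinc finger factor, rose in mature hepatocytes (1.94, edgeR adjusted p = 1.15e-08), as did Mbd1 (1.11) and Zbtb38 (1.09), so that 3 rose and 2 fell there (median 0.33), 5 of 11 where 44.8% of all tested genes were called. With library totals this was 1 higher and 5 lower. Between Diff. and mature hepatocytes 1 gene was higher (Cdca7) and 2 lower (Zbtb24 and Mbd1), where 35.8% of all tested genes were called. With library totals 2 were higher and 0 lower.

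Of 10 partners of DNA demethylation, 2 fell in Diff. hepatocytes (median -0.04), where 28.9% of all tested genes were called (14% fell). In mature hepatocytes 3 rose and 2 fell (median -0.21), 5 of 10 where 44.8% of all tested genes were called. Gadd45g, a stress-induced factor tied to repair-based demethylation, fell from 35.2 CPM in the precursors to 5.25 CPM in culture (log2 fold change -2.74, SE 0.23, edgeR adjusted p = 3.43e-07) and rose to 313 CPM in mature hepatocytes (3.15, SE 0.22, edgeR adjusted p = 2.45e-08). Gadd45b fell in both (-1.59 and -2.77), while Neil1 (1.19) and Gadd45a (1.09) rose in mature hepatocytes, the latter with overlapping groups. Cxxc4 fell to 0.0779 CPM in mature hepatocytes, at 3 counts or fewer in each library, from 0.772 CPM in hepatoblasts. Tdg, the glycosylase that removes oxidized methylcytosine, had -0.35 and -0.97 and was not called. With library totals 1 gene rose and 5 fell in mature hepatocytes. Between Diff. and mature hepatocytes 2 were higher and 2 lower, where 35.8% of all tested genes were called, and 6 and 1 with library totals.

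**Figure D5:**
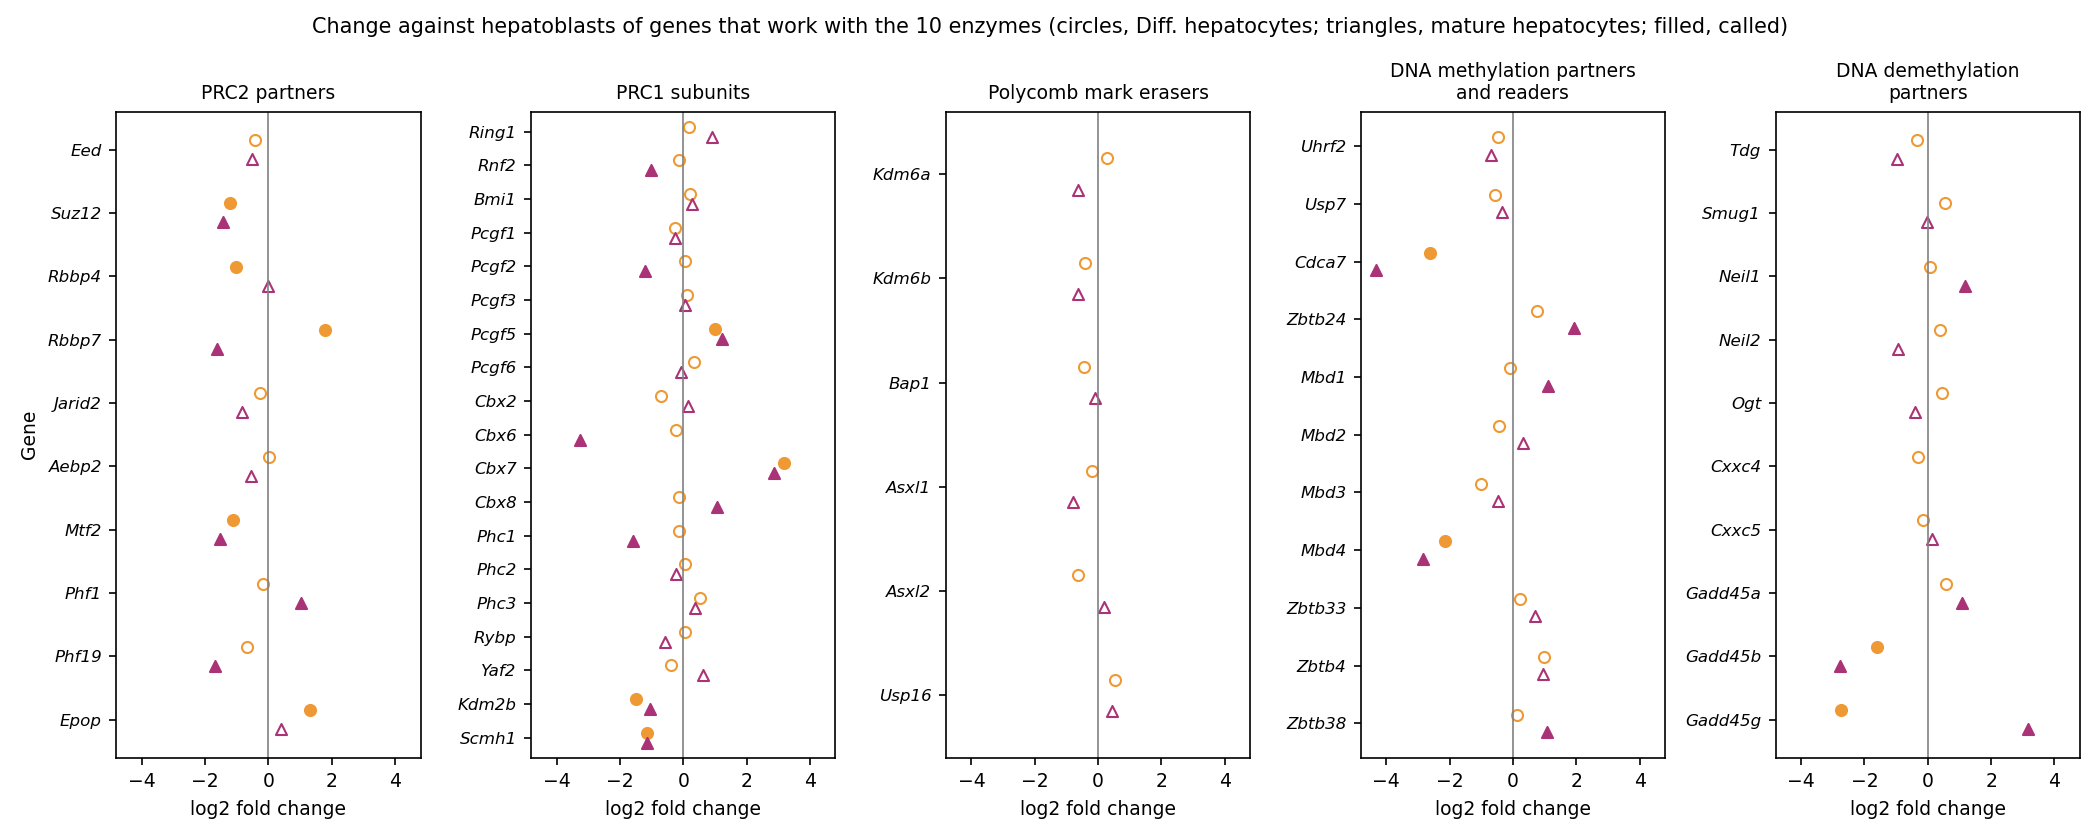
Log2 fold change against hepatoblasts (horizontal axis) of genes that work with the 10 enzymes, in 5 groups, for Diff. hepatocytes (circles) and mature hepatocytes (triangles), with filled symbols for called genes. Cxxc4 is not drawn for mature hepatocytes, where every library had 3 counts or fewer. Cbx7 stands at 3.18 and 2.85, Cdca7 at -2.61 and -4.31, and Rbbp7 and Gadd45g have their symbols on opposite sides of 0.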

How the data were processed

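RNA-seq counts of 12 libraries (4 per group) were analysed. The authors made poly(A) libraries, read 75 bases from 1 end, mapped reads to GRCm38 and counted them on genes of an Ensembl annotation with STAR 2.5.2b, and deposited the counts of each gene unnormalized. The study's methods call the libraries strand-specific, and which strand setting the counts use is not given in the sources used here, so antisense partners of Dnmt3a, Dnmt3b, Tet2, Tet3 and Ezh2 cannot be told apart from them. Groups and replicate numbers came from the labels. Symbols, positions and exon lengths came from GENCODE M21 (53620 of 53715 identifiers matched). Counts were tested in R 4.3.3 with edgeR 4.0.16 (TMM, quasi-likelihood, 1 fit of all 12 libraries by group), with genes above 10 counts in any library (17779 genes, at least 99.92% of each library's counts), Benjamini-Hochberg adjustment over all of them, and calls at an adjusted p below 0.01 and a log2 fold change beyond 1, as the study set them for DESeq2. Within-library values (log2 CPM, prior count 2) were tested by exact permutation over 70 assignments. DESeq2 1.42.0, other scalings and filters and left-out libraries were alternatives. The libraries of a group differed by far more than counting error (chi-square per gene 6.43 to 99.2), and whether replicates came from separate animals is stated only as biological replicates. The members and lists were chosen with earlier results of these data known. Text names all members, the called genes of each pathway list by size, the defining genes Eed, Suz12, Rnf2, Bmi1, Kdm6a, Kdm6b and Tdg, and for 5 members the 3 genes of at least 10 CPM with the highest r. Some genes of the pathway lists are not reported here and were left out of the lists and their counts. Sequences came from RefSeq, and the letters searched were chosen by hand.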

Additional observations from a re-analysis of the deposited data

Results flagged for a closer look

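In 48 sets of 4 libraries, a library far from its group was looked for by the gap to its nearest neighbour relative to the range of the group, and 2 such sets were found where chance gives about 2.4. In both sets it was hepatoblasts replicate 1, the library with the most blood cell and macrophage RNA. Its Dnmt3a level was 108.96 CPM, below the 148 to 156 CPM of the other 3 libraries. Its Hells level relative to the DNA replication genes was -0.92 on the log2 scale, below the -0.36 to -0.31 of the others.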

How the results depend on the processing

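Of 270 changes of single members under 9 alternatives, 244 kept direction and side of the threshold, 20 passed it anew, 2 no longer passed and 4 reversed. Library totals in place of TMM shifted the median of all genes by -0.32, -0.85 and 0.53 for Diff. and for mature hepatocytes against hepatoblasts and for Diff. against mature hepatocytes. They turned the split of all calls to 1985 higher and 3621 lower, 2007 and 7920, and 5500 and 1776, put 6 members higher between Diff. and mature hepatocytes (6 called), and reversed Ezh1 in mature hepatocytes (-0.61) and Tet2 between Diff. and mature hepatocytes (0.50). That Tet2 value also reversed with all genes of at least 1 count (0.0023), with the replicate block (0.0021) and without Diff. hepatocytes replicate 3 (0.02), mature hepatocytes replicate 1 (0.02) or replicate 3 (0.16), and ranged from -0.19 to 0.16 with 1 library left out. An adjusted p below 0.05 with no fold threshold called 9 members in Diff. hepatocytes (1 higher, 8 lower), 10 in mature hepatocytes (1 higher, 9 lower), and 7 between Diff. and mature hepatocytes (7 higher). Most tested genes lay near this threshold or beyond it, as 11349, 13205 and 12100 of the 17779 had an unadjusted p below 0.05 (edgeR). With 1 library left out, the counts of called members were 5, 7 and 3 to 4. The log2 differences tested within libraries ranged, with 1 library left out, as follows for those that changed call or direction: the Ezh1 to Ezh2 ratio between Diff. and mature hepatocytes from -0.49 to -0.28, the Dnmt3a to Dnmt3b ratio from -0.10 to 0.75 in mature hepatocytes against hepatoblasts and from -0.93 to -0.077 between Diff. and mature hepatocytes. Relative to replication genes, Dnmt1 ranged from 0.26 to 0.35 in Diff. hepatocytes against hepatoblasts and from -0.62 to -0.45 between Diff. and mature hepatocytes, Uhrf1 from 1.09 to 1.44 in the latter, Hells from -0.84 to -0.63 and from 0.55 to 0.80 in these comparisons, and Ezh2 from -0.32 to -0.12 between Diff. and mature hepatocytes. Same-numbered libraries of hepatoblasts and Diff. hepatocytes had correlations of deviations of 0.32, -0.06, 0.25 and 0.18. Those of the other pairs of groups were -0.08 to 0.09, so the numbers were not taken to pair the libraries. Still, 3 of 4 Diff. hepatocytes libraries were nearest to the hepatoblast library of their own number, a hint from the data and not from the design. The replicate block called 5, 7 and 4 members, Dnmt3b joining between Diff. and mature hepatocytes (1.29, edgeR adjusted p = 0.00554), and paired exact tests of the within-library values could not go below p = 0.125. Leaving out both libraries that stood apart and rescaling the pathway lists were chosen after seeing the data. With 1 library left out, the calls lost within libraries came from 4 against 3 libraries, where fewer assignments are possible. The causes of the other changes were not tested. Depth limits Tet1 most, at 3 counts or fewer in each mature library.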
